A study of Mus musculus with 12 samples.

Results

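Interferon-stimulated genes are the genes that cells switch on when interferon binds its receptor, and they are described here across 12 whole-liver arrays of mice that carry floxed Myc alleles. The members were the probes whose accession maps to one of 38 listed gene symbols. Of the 38 genes, 33 had such a probe, read by 48 probes of 1 spot each, and all 33 passed the brightness filter. The filter passed 25260 genes or unnamed probes in all, of which 14632 were genes with a symbol. Shares given below for all genes count the unnamed probes too. No probe was matched by accession for Mx1, Mx2, Herc6, Dtx3l and Xaf1. All mice were of the C57BL/6 strain, and the diets were given for 2 days. The groups were MycF/F,ERT2-Cre mice on a diet with 0.1% Wy-14643 (n = 4), MycF/F mice on the same drug diet (n = 3), MycF/F,ERT2-Cre mice on control diet (n = 4) and MycF/F mice on control diet (n = 1, its RNA labelled as pooled liver and its genotype as wt). Wy-14643 activates PPARα, a lipid-sensing nuclear receptor whose targets include the fatty acid oxidation genes of hepatocytes. MycF/F alleles are flanked by loxP sites that Cre recombinase cuts, and ERT2-Cre is a Cre fusion held outside the nucleus until a ligand such as tamoxifen binds it. The labels give neither the promoter that drives ERT2-Cre nor tamoxifen treatment, sex or age, and they do not say that samples are separate animals, so the spread behind the p-values can be technical.

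Interferons are secreted when a cell senses viral or misplaced nucleic acid. Type I and type III interferons activate the kinases Jak1 and Tyk2, which phosphorylate Stat2; a complex that holds Stat2 and Irf9 then binds the interferon-stimulated response element (ISRE) in the promoters of its target genes. The products bind foreign RNA, sense it, block translation, carry the ubiquitin-like protein Isg15 or attract lymphocytes, and some of them (Irf7, Stat2, Irf9) feed back on the pathway. In the liver hepatocytes, Kupffer cells and endothelium all respond to interferon, and an uninfected liver keeps a low resting level of these genes.

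The promoters of 6 members are shown because these members had the smallest p for the effect of Wy-14643 in MycF/F,ERT2-Cre livers among those that hold the ISRE core. The core searched was GAAA, any 2 bases and GAAA, on either strand. Each window runs from 250 bases before to 50 bases after the annotated start site, 5′ to 3′ along the gene, as RefSeq gives it for GRCm38.p6. The windows are Gbp3 at chr3:142559794-142560093 (plus strand), Ifih1 at chr2:62646206-62646505 (minus strand), Ddx58 at chr4:40239776-40240075 (minus strand), Rsad2 at chr12:26456403-26456702 (minus strand), Ifit3 at chr19:34583279-34583578 (plus strand) and Ifit1 at chr19:34640639-34640938 (plus strand). Capitals mark every match to the core, and a match to the other strand reads TTTC, 2 bases and TTTC.
Gbp3: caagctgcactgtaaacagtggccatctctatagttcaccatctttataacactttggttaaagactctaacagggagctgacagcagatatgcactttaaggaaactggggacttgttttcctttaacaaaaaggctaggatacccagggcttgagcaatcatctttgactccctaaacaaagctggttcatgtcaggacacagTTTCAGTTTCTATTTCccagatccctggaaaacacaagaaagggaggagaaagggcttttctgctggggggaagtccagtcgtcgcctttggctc
Ifih1: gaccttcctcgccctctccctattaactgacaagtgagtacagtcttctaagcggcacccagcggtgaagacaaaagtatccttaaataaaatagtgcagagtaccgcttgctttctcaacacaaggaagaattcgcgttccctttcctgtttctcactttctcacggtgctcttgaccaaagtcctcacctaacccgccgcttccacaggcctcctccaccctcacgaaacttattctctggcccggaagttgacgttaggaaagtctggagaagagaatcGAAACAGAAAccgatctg
Ddx58: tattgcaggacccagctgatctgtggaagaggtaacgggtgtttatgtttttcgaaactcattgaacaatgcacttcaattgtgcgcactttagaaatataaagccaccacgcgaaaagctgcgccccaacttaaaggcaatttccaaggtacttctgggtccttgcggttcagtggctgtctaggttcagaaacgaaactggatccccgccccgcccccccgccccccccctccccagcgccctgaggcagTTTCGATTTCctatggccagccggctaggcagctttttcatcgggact
Rsad2: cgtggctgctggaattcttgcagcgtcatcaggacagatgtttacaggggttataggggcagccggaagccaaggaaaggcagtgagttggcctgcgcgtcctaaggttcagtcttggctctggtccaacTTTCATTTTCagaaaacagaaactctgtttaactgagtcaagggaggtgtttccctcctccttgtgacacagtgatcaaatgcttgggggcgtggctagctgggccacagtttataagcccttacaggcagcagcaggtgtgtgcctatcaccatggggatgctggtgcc
Ifit3: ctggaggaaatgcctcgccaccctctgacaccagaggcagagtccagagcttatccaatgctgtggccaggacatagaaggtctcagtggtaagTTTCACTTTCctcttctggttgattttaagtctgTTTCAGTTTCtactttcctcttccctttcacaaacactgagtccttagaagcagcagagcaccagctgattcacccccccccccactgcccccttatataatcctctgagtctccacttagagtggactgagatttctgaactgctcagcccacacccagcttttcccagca
Ifit1: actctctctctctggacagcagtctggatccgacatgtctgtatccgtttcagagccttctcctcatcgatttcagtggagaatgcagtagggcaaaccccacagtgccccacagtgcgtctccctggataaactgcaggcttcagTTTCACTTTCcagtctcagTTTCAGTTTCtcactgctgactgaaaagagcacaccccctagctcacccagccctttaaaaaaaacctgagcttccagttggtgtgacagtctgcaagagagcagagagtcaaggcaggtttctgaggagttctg

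Gbp3, Ifit3 and Ifit1 each held 2 matches, overlapping in Gbp3, and all 6 of these matches were on the other strand. Their first bases lay at positions -45 and -39 from the start site in Gbp3, at -156 and -122 in Ifit3 and at -104 and -85 in Ifit1, where the start base is 1 and the base before it -1. Rsad2 held 1 match at -120. The single matches of Ddx58 and Ifih1 lay just past the start site, at positions 3 and 33, inside the transcript. Of 25 measured members with a window, 14 held the core in any of their windows (56.0%). Counted by window, 14 of the 34 windows of the listed members held it (41.2%), against 3.44% of all 32851 windows. The GAS letters TTCNNNGAA read alike on both strands and belong to the interferon-gamma response. They were in any window of 7 of the 25 members (28%), and 3 members held both motifs. Counted by window, 7 of the 34 held them (20.6%), against 8.3% of all windows. Of the 14 members with the core 12 were called lower on Wy-14643 in MycF/F,ERT2-Cre livers (median log2 difference -0.75), and of the 11 without it 4 were (median -0.38, among them Oasl1 at -1.21). These counts describe letters in a short window, and the difference between them was not tested.

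Each value below is a log2 ratio of sample (Cy5) to a pooled liver reference (Cy3) on the same array, so 0 is the level of the pool and negative values are below it; a difference between groups is the log2 value of the first group minus that of the second. The median ratio of Cy5 signal to background was 2.64 to 4.82 by array, with 64.6% to 77.1% of spots clear of background; the number of arrays limits the precision. Slide 1 had more outlier spots (5.47% to 8.35% by array) than slides 2 and 3 (0.904% to 1.84%). The members were bright enough to be read: 31 of the 33 were well above background on all 12 arrays, and Cmpk2 on the fewest (9). On Wy-14643 the first Myc probe read -1.21 to -0.96 in MycF/F,ERT2-Cre livers and 0.52 to 0.88 in MycF/F livers (limma adjusted p = 0.00386); a second probe behaved alike, and the brightest had a smaller difference of -0.57 (adjusted p = 0.27). Where these probes lie on the gene was not determined. PPARα targets rose for 10 of 10 genes on Wy-14643 in MycF/F,ERT2-Cre livers (median log2 difference 2.94).

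In MycF/F,ERT2-Cre livers given Wy-14643, 20 of the 33 members fell and 0 rose relative to those on control diet (limma, adjusted p under 0.05), against 16.4% of all 25166 genes tested that were called, 7.27% lower and 9.12% higher. The median log2 difference of the members was -0.53, where that of all genes was 0.03 and 90% of all genes lay between -0.49 and 0.53. The sign was below 0 for 32 of the 33, against 43.4% of all genes, and ranged from -1.21 for Oasl1 to 0.12 for Trim25. In 19 members the Wy-14643 arrays with a value lay wholly below the control arrays with one, a pattern met by 9.48% of all genes; among these, Isg15 and Ifi35 had 3 Wy-14643 arrays with a value and Parp9 had 2. Within slides 1, 2 and 3 the median difference was -0.70 (26 of 28 members below 0), -0.58 (32 of 32) and -0.45 (26 of 33). With arrays scaled by their median in place of loess only 4 members were called (Ifit3, Oasl1, Gbp6 and Ifih1) at a like median of -0.57, while the calls over all genes numbered 287 lower and 607 higher; with Cy5 alone 13 members were called, without Ifit3, Oas1a, Oas3, Gbp2, Ddx58, Stat2, Ifi35 and Cxcl10 and with Irf9 in addition. With each array left out in turn 14 to 20 members were called. Of 12 Kupffer cell and macrophage markers 8 fell beside the members (median -0.64). In RNA of whole liver fewer cells of a type and less RNA per cell cannot be told apart, and the part of Kupffer cells in the members' lower values was not tested.

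**Figure D1:**
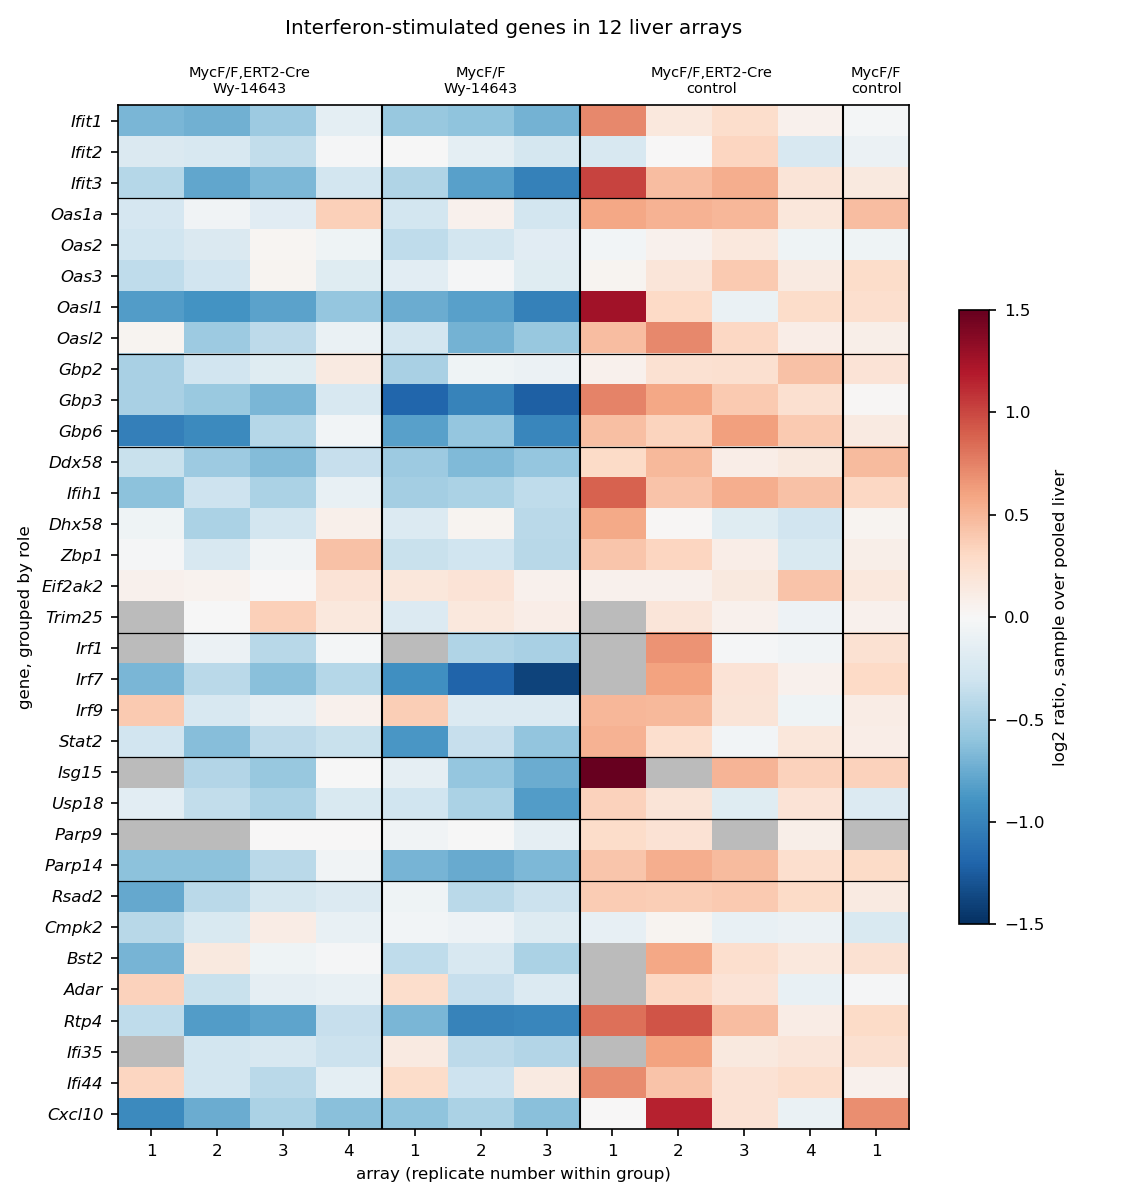
Log2 ratio of sample over pooled liver for the 33 measured interferon-stimulated genes (rows, grouped by role) on each of the 12 arrays (columns, by group and replicate number); colours saturate at 1.5 on either side and grey marks a spot left out as an outlier. Most rows are blue in the 7 Wy-14643 arrays and red in the 5 control-diet arrays, and MycF/F,ERT2-Cre replicate 4 is the palest of the Wy-14643 arrays.

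The median over the measured members was -0.38, -0.35, -0.39 and -0.11 in the 4 MycF/F,ERT2-Cre arrays on Wy-14643, against 0.45, 0.35, 0.22 and 0.15 in the 4 MycF/F,ERT2-Cre arrays on control diet. It was -0.32, -0.39 and -0.44 in MycF/F livers on Wy-14643, against 0.15 in the MycF/F control array. Every Wy-14643 array was thus below every control array. The 2 highest medians were those of the 2 MycF/F,ERT2-Cre control arrays on slide 1.

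The IFIT proteins bind foreign RNA and keep it from being translated. Of the 3 measured, Ifit1 and Ifit3 fell. Ifit1 read -0.68, -0.72, -0.55 and -0.15 in MycF/F,ERT2-Cre livers given Wy-14643, against 0.72, 0.16, 0.26 and 0.06 in those on control diet, a log2 difference of -0.83 (SE 0.15, 1.78-fold lower, limma adjusted p = 0.00229). MycF/F livers gave -0.57, -0.60 and -0.71 for Ifit1 on Wy-14643 and -0.03 on control diet. The drug groups did not overlap in either genotype, and replicate 1 of the MycF/F,ERT2-Cre controls was well above the others. Ifit3, a partner of Ifit1, read -0.43, -0.78, -0.67 and -0.28 on Wy-14643 and 1.01, 0.46, 0.55 and 0.19 on control diet in MycF/F,ERT2-Cre livers (difference -1.09, SE 0.18, 2.13-fold lower, adjusted p = 0.000975). MycF/F arrays had Ifit3 values of -0.45, -0.81 and -1.01 on Wy-14643 and 0.15 on control diet. Both promoters carry paired ISRE cores, as printed above. Ifit2 stayed near the pool, with a difference of -0.17 (SE 0.13, adjusted p = 0.433).

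The OAS enzymes make short adenylate chains that switch on RNase L, which degrades RNA, while Oasl1 and Oasl2 are OAS-like proteins; in mice Oasl1 is known to restrain translation of Irf7. Of the 5 measured 4 fell, among them Oasl1. Its values were -0.84, -0.90, -0.80 and -0.58 in MycF/F,ERT2-Cre livers given Wy-14643, against 1.26, 0.30, -0.10 and 0.27 in those on control diet (difference -1.21, SE 0.22, 2.32-fold lower, limma adjusted p = 0.00238). Oasl1 in MycF/F livers read -0.75, -0.81 and -1.01 on Wy-14643 and 0.25 on control diet. The Wy-14643 arrays were tightly grouped, while the control arrays spread widely, with replicate 1 far above the rest; without it the difference was -0.94. Oasl2 read 0.04, -0.55, -0.39 and -0.10 on Wy-14643 and 0.46, 0.72, 0.31 and 0.10 on control diet in MycF/F,ERT2-Cre livers (difference -0.65, SE 0.16, adjusted p = 0.0144). For MycF/F livers the Oasl2 values were -0.27, -0.71 and -0.57 on Wy-14643 and 0.09 on control diet. The highest Wy-14643 value in MycF/F,ERT2-Cre livers was just under the lowest control value. Oas1a fell by 0.47 (SE 0.14, adjusted p = 0.0392) and Oas3 by 0.39 (SE 0.10, adjusted p = 0.0224). The calls of Oas1a and Oas3 were lost in 7 and 4 of the 12 fits that leave out 1 array (adjusted p up to 0.107 and 0.0672), and a second probe of Oas3 gave -0.12. For Oas1a these were the fits without replicate 3 of MycF/F on Wy-14643, replicates 1 to 3 of MycF/F,ERT2-Cre given Wy-14643 or replicates 1 to 3 of its controls (difference -0.47 to -0.40); for Oas3, without replicate 1, 2 or 4 on Wy-14643 or control replicate 3 (-0.40 to -0.32). Oas2 had a difference of -0.17 (SE 0.09, adjusted p = 0.252), but with the deposited log ratio it was -0.93 and called (adjusted p = 0.0374). This probe was well above background on 10 of the 12 arrays. A second probe of Oas2, well above background on 4 arrays, gave -0.07.

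Guanylate-binding proteins are large GTPases that gather on the membranes around intracellular pathogens, and all 3 measured fell. Gbp3 had the smallest p of all members, with -0.49, -0.56, -0.68 and -0.24 in MycF/F,ERT2-Cre livers given Wy-14643, against 0.74, 0.58, 0.39 and 0.24 in those on control diet (difference -0.98, SE 0.12, 1.97-fold lower, limma adjusted p = 0.000162). Gbp3 in MycF/F livers was lower still, at -1.19, -1.0 and -1.23 on Wy-14643 and 0.02 on control diet. All Wy-14643 arrays were below all controls, and the 3 MycF/F arrays on Wy-14643 were below the 4 MycF/F,ERT2-Cre ones. Gbp6 read -1.03, -0.96, -0.43 and -0.04 on Wy-14643 and 0.45, 0.33, 0.61 and 0.39 on control diet in MycF/F,ERT2-Cre livers (difference -1.06, SE 0.19, 2.09-fold lower, adjusted p = 0.00196). Its values in MycF/F livers were -0.81, -0.58 and -0.98 on Wy-14643 and 0.14 on control diet. The 2 arrays of slide 3 were the least low among the MycF/F,ERT2-Cre Wy-14643 arrays for Gbp6. Gbp2 fell by 0.45 (SE 0.14, adjusted p = 0.0429), a call lost in 8 of the 12 fits that leave out 1 array (difference -0.46 to -0.36, adjusted p up to 0.115). These were the fits without replicate 2 or 3 of MycF/F on Wy-14643, replicate 1, 2 or 3 of MycF/F,ERT2-Cre given Wy-14643, or its control replicate 2, 3 or 4.

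**Figure D2:**
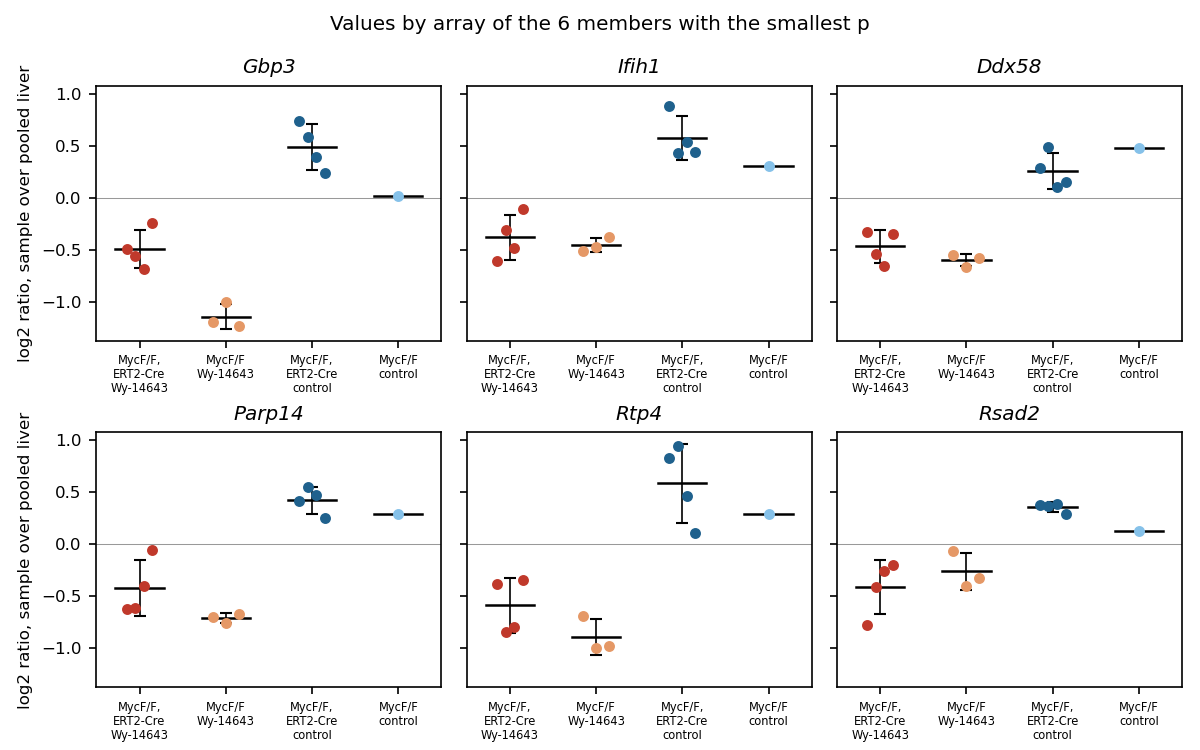
Log2 ratio of sample over pooled liver by array (points) for the 6 members with the smallest p in the effect of Wy-14643 in MycF/F,ERT2-Cre livers; lines are group means and bars 1 SD, with none for the single MycF/F control array. Wy-14643 and control arrays do not overlap in any panel, and the Gbp3 panel shows the MycF/F Wy-14643 arrays (-1.23 to -1.0) below the MycF/F,ERT2-Cre ones (-0.68 to -0.24).

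Cytosolic sensors of double-stranded RNA include Ddx58 (RIG-I), Ifih1 (MDA5) and Dhx58 (LGP2), a regulator of both; Zbp1 senses Z-form nucleic acid, Eif2ak2 (PKR) halts translation, and Trim25 is a ubiquitin ligase that acts on RIG-I. Of these 6 the main sensors Ddx58 and Ifih1 fell. Ddx58 read -0.33, -0.54, -0.65 and -0.35 in MycF/F,ERT2-Cre livers given Wy-14643, against 0.29, 0.49, 0.10 and 0.15 in those on control diet (difference -0.73, SE 0.10, 1.65-fold lower, limma adjusted p = 0.000372). MycF/F livers had -0.55, -0.66 and -0.58 for Ddx58 on Wy-14643 and 0.48 on control diet. The gap between the diets was wider than the spread within any group. Its other probes gave -0.55 (adjusted p = 0.0334) and -0.19 (adjusted p = 0.232). Ifih1 read -0.61, -0.31, -0.48 and -0.11 on Wy-14643 and 0.88, 0.43, 0.54 and 0.44 on control diet in MycF/F,ERT2-Cre livers (difference -0.95, SE 0.12, 1.93-fold lower, adjusted p = 0.000214), and a second probe gave -0.54 (adjusted p = 0.0213). The Ifih1 values of MycF/F livers were -0.51, -0.47 and -0.38 on Wy-14643 and 0.31 on control diet. Again no Wy-14643 array reached the lowest control. The differences were -0.21 for Dhx58, -0.12 for Zbp1, -0.09 for Eif2ak2 and 0.12 for Trim25 (SE 0.09 to 0.18, adjusted p from 0.495 to 0.689). The second Trim25 probe, read on all 12 arrays, gave 0.48 (SE 0.15, adjusted p = 0.048), so the Trim25 probes differ in call; with Cy5 alone the sign of the brightest turned (-0.35).

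Among the transcription factors, Irf7 drives production of type I interferon, Stat2 and Irf9 are parts of the complex that binds the ISRE, and Irf1 binds related sites. Irf7 read -0.69, -0.40, -0.63 and -0.43 in MycF/F,ERT2-Cre livers given Wy-14643, against 0.60, 0.20 and 0.06 in the 3 control arrays that gave a value (difference -0.83, SE 0.15, 1.77-fold lower, limma adjusted p = 0.00246). Irf7 in MycF/F livers read -0.92, -1.20 and -1.39 on Wy-14643, the last being the lowest value of any member, and 0.30 on control diet. As with Gbp3, the MycF/F arrays on Wy-14643 all lay below the MycF/F,ERT2-Cre ones. Stat2 read -0.29, -0.64, -0.39 and -0.33 on Wy-14643 and 0.52, 0.25, -0.04 and 0.17 on control diet in MycF/F,ERT2-Cre livers (difference -0.64, SE 0.14, 1.55-fold lower, adjusted p = 0.00676). For MycF/F livers the Stat2 values were -0.87, -0.35 and -0.59 on Wy-14643 and 0.10 on control diet. The diets did not overlap for Stat2 in either genotype. Irf9 had a difference of -0.26 (SE 0.17, adjusted p = 0.364), and 0.11 on its other probe. The brightest probe of Irf1 gave -0.38 (SE 0.19, adjusted p = 0.228, 3 arrays a group), while its other probe, read on all 12 arrays, gave -0.83 (SE 0.12, adjusted p = 0.000551). That probe read -0.52, -0.55, -0.29 and -0.28 on Wy-14643 and 0.24, 0.75, 0.52 and 0.16 on control diet, so the call of Irf1 depends on the probe.

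Isg15 is a ubiquitin-like protein that is attached to other proteins during the response, and Usp18 removes it and dampens the interferon receptor. Isg15 read -0.44, -0.57 and -0.01 in the 3 MycF/F,ERT2-Cre arrays on Wy-14643 with a value, against 1.53, 0.51 and 0.34 in the 3 on control diet (difference -1.13, SE 0.29, 2.19-fold lower, limma adjusted p = 0.0237). MycF/F livers read -0.13, -0.58 and -0.75 on Wy-14643 and 0.34 on control diet. Its control value of 1.53 was the highest of any member on any array, and the difference was -0.76 without that array. The call was lost without replicate 2 or without replicate 3 of the MycF/F,ERT2-Cre livers given Wy-14643 (log2 difference -1.08 and -1.02, adjusted p up to 0.0854). Usp18 fell by 0.45 (SE 0.14, adjusted p = 0.0393), with overlapping groups and the call lost in 7 of the 12 fits that leave out 1 array (difference -0.48 to -0.39, adjusted p up to 0.111). These left out replicate 2 of MycF/F on Wy-14643, replicate 2, 3 or 4 of MycF/F,ERT2-Cre given Wy-14643, or its control replicate 1, 2 or 4.

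Parp14 and Parp9 are ADP-ribosyltransferase family proteins, and Parp9 works with the ubiquitin ligase Dtx3l. Parp14 read -0.62, -0.61, -0.40 and -0.05 in MycF/F,ERT2-Cre livers given Wy-14643, against 0.42, 0.55, 0.47 and 0.25 in those on control diet (difference -0.84, SE 0.12, 1.8-fold lower, limma adjusted p = 0.000394). MycF/F livers gave -0.70, -0.76 and -0.67 for Parp14 on Wy-14643 and 0.29 on control diet. The groups did not overlap, and its other probes gave -0.50 and -0.55, both called. Parp9 had a difference of -0.19 (SE 0.10, adjusted p = 0.253) from 2 arrays on Wy-14643 and 3 on control diet.

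The other effectors act at separate steps. Rsad2 (viperin) makes a nucleotide that stops viral RNA synthesis, Cmpk2 is a nucleotide kinase encoded next to it, Bst2 (tetherin) holds virus particles at the cell surface, Adar edits double-stranded RNA, and Cxcl10 is a chemokine that attracts T cells. Rsad2 read -0.77, -0.41, -0.26 and -0.20 in MycF/F,ERT2-Cre livers given Wy-14643, against 0.38, 0.37, 0.39 and 0.29 in those on control diet (difference -0.77, SE 0.12, 1.7-fold lower, limma adjusted p = 0.000766). The MycF/F values of Rsad2 were -0.06, -0.40 and -0.32 on Wy-14643 and 0.13 on control diet. The groups did not overlap on this probe, but its other probes gave -0.07 (adjusted p = 0.8) and -0.17 (adjusted p = 0.307), so the change was seen on 1 of 3 probes. Rtp4 read -0.38, -0.84, -0.79 and -0.34 on Wy-14643 and 0.83, 0.94, 0.46 and 0.11 on control diet in MycF/F,ERT2-Cre livers (difference -1.17, SE 0.18, 2.25-fold lower, adjusted p = 0.000688). Its MycF/F values were -0.69, -1.0 and -0.98 on Wy-14643 and 0.29 on control diet. Rtp4 is induced by interferon and named as a receptor transporter, and none of its Wy-14643 arrays reached the lowest control array.

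Cxcl10 read -0.95, -0.74, -0.47 and -0.63 in MycF/F,ERT2-Cre livers given Wy-14643, against 0.01, 1.15, 0.22 and -0.10 in those on control diet (difference -1.02, SE 0.22, 2.03-fold lower, limma adjusted p = 0.0073). MycF/F arrays gave -0.60, -0.48 and -0.63 on Wy-14643 and 0.70 on control diet. All 7 Wy-14643 arrays were below all 5 control arrays, and the difference was -0.74 without the highest control array. Ifi35 read -0.27, -0.24 and -0.32 in the 3 MycF/F,ERT2-Cre arrays on Wy-14643 with a value, against 0.60, 0.15 and 0.18 in the 3 on control diet (difference -0.59, SE 0.17, adjusted p = 0.0375). MycF/F livers had 0.14, -0.39 and -0.44 for Ifi35 on Wy-14643 and 0.24 on control diet. The diets did not overlap in either genotype, but the call in MycF/F,ERT2-Cre livers was lost without replicate 2, 3 or 4 on Wy-14643 or control replicate 2 or 4, which is 5 of the 12 fits that leave out 1 array (difference -0.65 to -0.44, adjusted p up to 0.116). Ifi44 (difference -0.53, SE 0.17, adjusted p = 0.054) and Bst2 (-0.49, SE 0.18, adjusted p = 0.0985) missed the threshold, as did Adar at -0.19 and Cmpk2 at -0.09. The call of Ifi44 depends on the setting: with slide as a block it was called at an adjusted p of 0.0175, with the replicate block at 0.0112, with array weights at 0.0215, without background correction at 0.0321 and without slide 1 at 0.0254. A second probe of Adar gave -0.32 (adjusted p = 0.0333).

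In MycF/F livers, 3 Wy-14643 arrays were set against the single control array, which is assumed to vary like the arrays of the other groups. Of 32 members fitted, 6 fell and 0 rose (limma, adjusted p under 0.05), against 6.54% of 24915 genes that were called, 3.26% lower and 3.28% higher. At an unadjusted p under 0.05, 16 members were lower and 0 higher, against 8.98% and 8.58% of all genes. The median log2 difference was -0.59 (0.00 over all genes), with 31 of the 32 below 0 against 50.8% of all genes; slide 2, which holds both groups, gave -0.50. Irf7 differed by -1.47 (SE 0.22, 2.77-fold lower, adjusted p = 0.00209), Rtp4 by -1.18 (SE 0.29, adjusted p = 0.0305), Gbp3 by -1.16 (SE 0.20, adjusted p = 0.00373), Ddx58 by -1.07 (SE 0.17, adjusted p = 0.00191), Parp14 by -1.0 (SE 0.19, adjusted p = 0.00774) and Ifih1 by -0.76 (SE 0.20, adjusted p = 0.0415). All 6 were also called in MycF/F,ERT2-Cre livers, where another 14 were, and 30 of the 32 were below 0 in both genotypes. Other probes gave smaller differences in MycF/F livers: -0.27 and -0.26 for Ddx58, -0.52 for Ifih1, and -0.79 and -0.59 for Parp14. Of these only the -0.79 of Parp14 was called. With the mean of all kept probes of a gene, Ddx58 and Ifih1 were not called and Irf1 was. The other probe of Irf1 gave -1.02 here. The call of Ifih1 was lost in 6 of the 11 fits that leave out 1 array, those without any 1 of the MycF/F arrays on Wy-14643, replicate 2 or 3 of MycF/F,ERT2-Cre given Wy-14643 or its control replicate 3 (difference -0.80 to -0.73, adjusted p up to 0.0949). That of Rtp4 was lost without replicate 2 or 3 of MycF/F on Wy-14643 (-1.14 and -1.13, adjusted p up to 0.081). Of 11 Kupffer markers 3 fell in this comparison (median -0.75), and their part in the members' values was not tested. With arrays scaled by their median 0 members were called, with Cy5 alone 1 (Irf7), with the deposited log ratio 3, and without slide 1 15. The calls over all genes moved too: 812 were lower and 818 higher, against 101 and 118 with arrays scaled by their median, 102 and 156 with Cy5 alone, 507 and 551 with the deposited log ratio, and 1406 and 1438 without slide 1. The replicate block also called 6 members, without Ifih1 and Rtp4 and with Gbp2 and Cxcl10, and slide as a block called 9, without Ifih1 and with Ifit3, Oasl2, Isg15 and Ifi35.

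**Figure D3:**
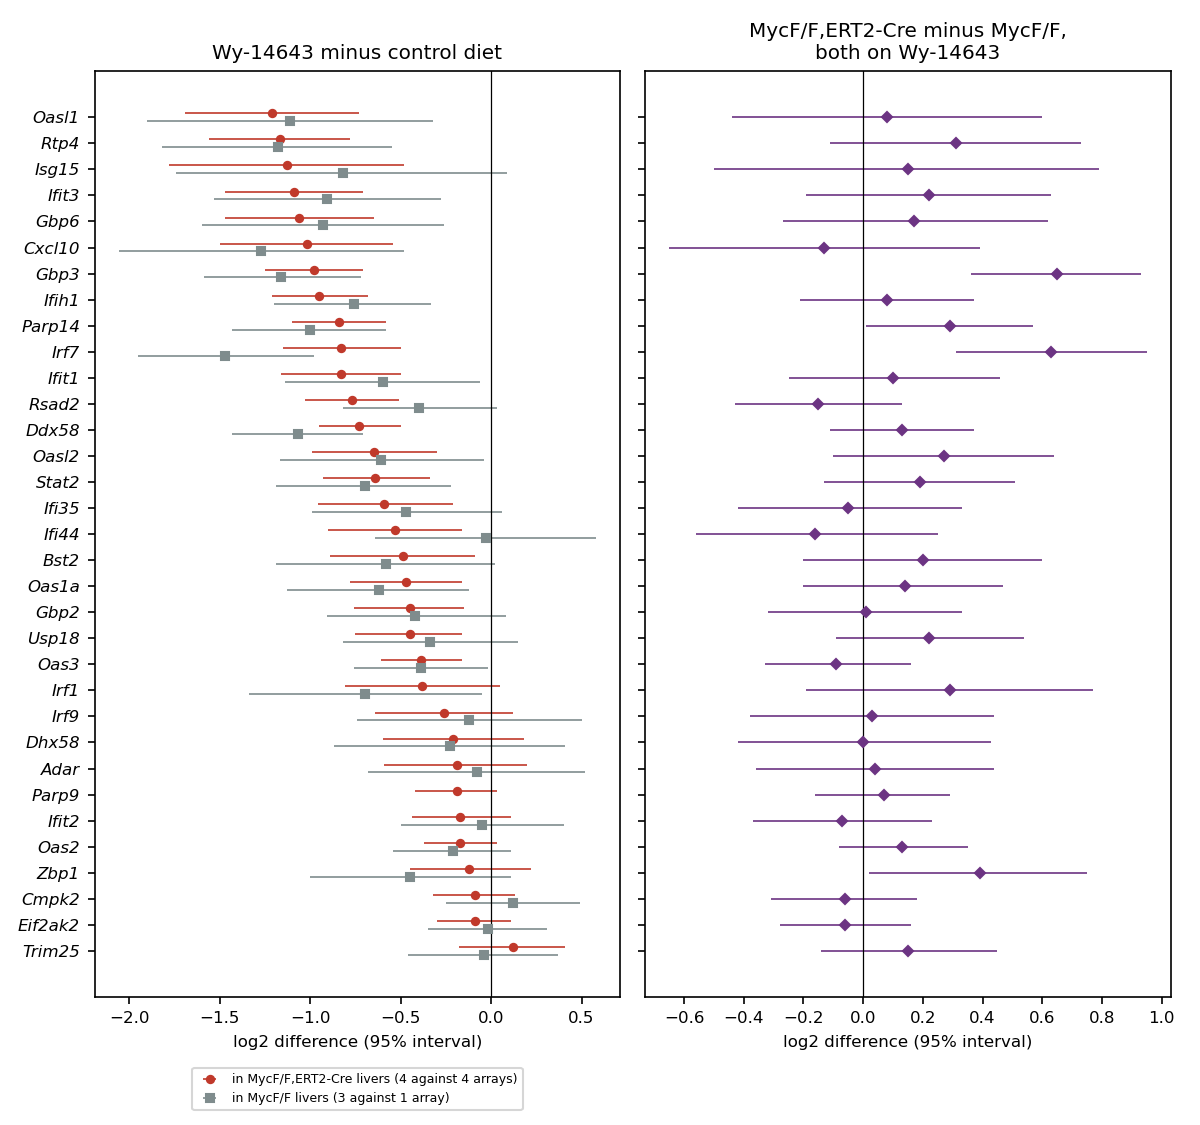
Log2 difference with its 95% interval for each of the 33 members, ordered by the drug effect in MycF/F,ERT2-Cre livers. The left panel gives Wy-14643 minus control diet in both genotypes and the right one MycF/F,ERT2-Cre minus MycF/F on Wy-14643, on another horizontal scale. The drug effects of both genotypes fall on the same side of 0 for 30 of 32 members, and on the right only Gbp3, Irf7, Zbp1 and Parp14 have intervals that leave out 0, before adjustment over all genes.

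The genotypes were compared on Wy-14643 with 4 MycF/F,ERT2-Cre and 3 MycF/F arrays. Of the 33 members 0 were called (limma, adjusted p under 0.05), while 0.103% of all 25171 genes were (0.0834% lower, 0.0199% higher). The median log2 difference was 0.13 (0.02 over all genes), and 25 of the 33 were above 0; all genes were below 0 in 43.3% of cases. Gbp3 had the largest difference at 0.65 (SE 0.13, 1.56-fold higher, unadjusted p = 0.000369, adjusted p = 0.101), followed by Irf7 at 0.63 (SE 0.15, 1.55-fold higher, unadjusted p = 0.0012, adjusted p = 0.166). Zbp1 at 0.39 and Parp14 at 0.29 had unadjusted p of 0.0402 and 0.0428 (adjusted p = 0.558 and 0.568), and 4 of 33 members with an unadjusted p under 0.05 and a higher level compare with 3.75% of all genes; 0 members and 4.57% of all genes were lower by that measure. In 6 members (Gbp3, Irf7, Zbp1, Parp14, and with fewer arrays Irf1 and Parp9) the MycF/F,ERT2-Cre arrays lay wholly above the MycF/F arrays, against 6.84% of all genes; 0 members and 6.15% of all genes lay wholly below. Within slides 1, 2 and 3 the median difference was 0.03, 0.02 and 0.24, and without replicate 4 of MycF/F,ERT2-Cre, which lies on slide 3, it was 0.01 with 14 of the 33 members below 0. With arrays weighted by their quality Gbp3 (0.64, adjusted p = 0.0287) and Irf7 (0.72, adjusted p = 0.022) were called, and without slide 1 Irf7 was (0.80, adjusted p = 0.0222). The 95% interval of a member reached a median of 0.33 to either side. Kupffer markers were higher by a median of 0.37 in the same comparison (12 of 12 above 0, 0 called). Of the 12 markers 7 were higher at an unadjusted p under 0.05. The part of Kupffer markers in the members' values was not tested.

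On control diet the genotypes differed by a median of 0.13 over 32 members (4 arrays against 1; all genes -0.02), and 0 were called, as were 0% of all 24902 genes; 1 member was higher at an unadjusted p under 0.05 (Gbp3, 0.47) and 0 were lower, against 0.562% and 1.23% of all genes. The sign was below 0 for 8 of the 32, against 56.5% of all genes, and for 15 without slide 1 and 11 with slide as a block (median 0.07 in both). The difference of the drug effects between the genotypes (MycF/F,ERT2-Cre minus MycF/F) had a median of -0.04 over 32 members, with 0 called and 0% of all 24877 genes; 17 of the 32 were below 0, against 41% of all genes. Irf7 gave the largest value, 0.64 (SE 0.27, unadjusted p = 0.0336, adjusted p = 1), and was the 1 member with an unadjusted p under 0.05, a level reached by 0.808% of all genes below 0 and 1.37% above it. The median 95% interval reached 0.61 to either side, which is wider than the median drug effect of -0.53 in MycF/F,ERT2-Cre livers.

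Genes upstream of the members were taken from lists of the pathway. Their counts stand beside 7.27% of all genes called lower and 9.12% called higher in the same comparison. Of 18 interferon ligands 8 were measured and 0 called on Wy-14643 in MycF/F,ERT2-Cre livers (median log2 difference 0.02): Ifna11 and Ifne were never above background, Ifnb1 and Ifna4 did not pass the filter, and the smallest p belonged to Ifna2 (0.45, SE 0.18, limma adjusted p = 0.131). The 8 measured were dim, with a summed Cy5 signal of 1310 to 1430 in MycF/F,ERT2-Cre controls, so a change in them could be missed. Of 11 receptor and JAK/STAT genes 3 fell and 0 rose (median -0.12). These were Il10rb, a shared receptor chain for type III interferon and interleukin-10 family cytokines (-0.98, SE 0.09, adjusted p = 2.19e-05), the kinase Jak1 (-0.54, SE 0.08, adjusted p = 0.000445) and Stat3, the factor downstream of interleukin-6 (-0.93, SE 0.15, adjusted p = 0.000903). Ifngr1, a chain of the interferon-gamma receptor, was at -0.36 (SE 0.13, adjusted p = 0.0794). Among 19 further sensors, adaptors and signalling genes 6 fell and 1 rose (median -0.15). Unc93b1, which delivers Toll-like receptors to endosomes, was at -0.85, Nod1 at -0.83, Ikbke at -0.84 and the factors Irf5 and Irf8 at -0.69 and -0.53 (SE 0.09 to 0.16, adjusted p from 5.84e-05 to 0.00375), while the adaptor Myd88 rose by 0.55 (SE 0.13, adjusted p = 0.0144). With arrays scaled by their median 1 of the receptor and JAK/STAT genes was called lower, and 0 of the sensors, adaptors and signalling genes were called either way. With Cy5 alone 3 of the former and 4 of the latter were called lower, and 0 of either higher.

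Of 18 negative regulators 3 fell and 2 rose (median log2 difference -0.06). In the same comparison 7.27% of all genes were called lower and 9.12% higher. Irf2, a repressor at ISRE sites, fell by 0.72 (SE 0.11, adjusted p = 0.000863), the cytokine signalling inhibitor Cish by 1.36 (SE 0.30, adjusted p = 0.0082) and the DNase Trex1 by 0.33 (SE 0.10, adjusted p = 0.0471). Ptpn6 (SHP-1) rose by 0.59 (SE 0.10, adjusted p = 0.00201) and Socs1, which inhibits JAK kinases, by 0.51 (SE 0.14, adjusted p = 0.0257). Of 58 other interferon-induced genes outside the 38, 26 fell and 2 rose (median -0.25). Ly6e, a membrane protein that hinders coronavirus entry, was at -1.63 (SE 0.18), Shisa5 and the membrane restriction factor Ifitm3 both at -0.79 (SE 0.10) and Gbp7 at -0.76 (SE 0.10; adjusted p of the 4 from 9.88e-05 to 0.000271), while Tor3a rose by 1.45 (SE 0.16, adjusted p = 6.61e-05). Of 14 immunoproteasome and antigen processing genes, which interferon also induces, 9 fell and 1 rose, with Psmb10 at -1.28, Psmb8 at -1.51, Tap1 at -1.08, Cd74 at -1.01 and H2-Aa at -0.79. With arrays scaled by their median 2 of the 58 other interferon-induced genes were called lower and 3 of the 14 antigen processing genes, and of the negative regulators 1 was called lower and 0 higher. With Cy5 alone 1 negative regulator was called lower and 1 higher. In that setting 9 of the other interferon-induced genes and 4 of the antigen processing genes were called lower.

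Markers of other cells moved beside the members. Over all genes 7.27% were called lower and 9.12% higher on Wy-14643 in MycF/F,ERT2-Cre livers. Of 12 Kupffer cell and macrophage markers measured, 8 fell on Wy-14643 in MycF/F,ERT2-Cre livers and 0 rose (median log2 difference -0.64), with Cd5l at -1.02, Clec4f at -0.72, Cd163 and C1qb at -0.69 and C1qc at -0.65; none of the 12 was below background on all arrays. Their summed Cy5 signal was 14000 to 16400 in MycF/F,ERT2-Cre livers given Wy-14643, 9960 to 13300 in MycF/F livers on Wy-14643, 20500 to 31100 in MycF/F,ERT2-Cre controls and 20900 in the MycF/F control. Summed Cy5 signals here and above were corrected for background and quantile-normalized between arrays, with outlier spots kept. With arrays scaled by their median 0 of the 12 Kupffer markers were called, as were 0 of the hepatocyte and 0 of the sinusoidal endothelium markers and 1 of the lymphocyte and NK cell markers. With Cy5 alone 2 Kupffer, 3 hepatocyte, 0 sinusoidal endothelium and 2 lymphocyte and NK cell markers were called lower. Among lymphocyte and NK cell markers 3 of 13 fell (median -0.20; Cd79b -0.56, Nkg7 -0.45, Ncr1 -0.60), as did 2 of 9 sinusoidal endothelium markers (median -0.29; Eng -0.53, Stab1 -0.55). Neutrophil markers were called for 0 of 7 (median 0.01, lowest S100a9 at -0.88), and dendritic cell markers fell for 0 of 7 (median 0.05, Siglech never above background), where Ly6d rose by 3.73. Both lists were dim on control diet. In MycF/F,ERT2-Cre controls their summed Cy5 signal was 997 to 1930 and 1180 to 1580, and that of the 13 lymphocyte and NK cell markers 2060 to 2450. In MycF/F,ERT2-Cre livers given Wy-14643 the neutrophil sum was 1110 to 1270. The dendritic sum, which includes Ly6d, was 4890 to 5690 there. Whether Ly6d stands for dendritic cells in these livers was not tested. A flat median in such lists does not show that these cells were unchanged. Hepatocyte markers fell for 4 of 7 (median -0.81; Serpina1c -1.53, Alb -1.31, Ttr -1.29, Tat -0.81); these are secreted proteins and an enzyme that hepatocytes make in bulk. The part of these cell types in the members' values was not tested.

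**Figure D4:**
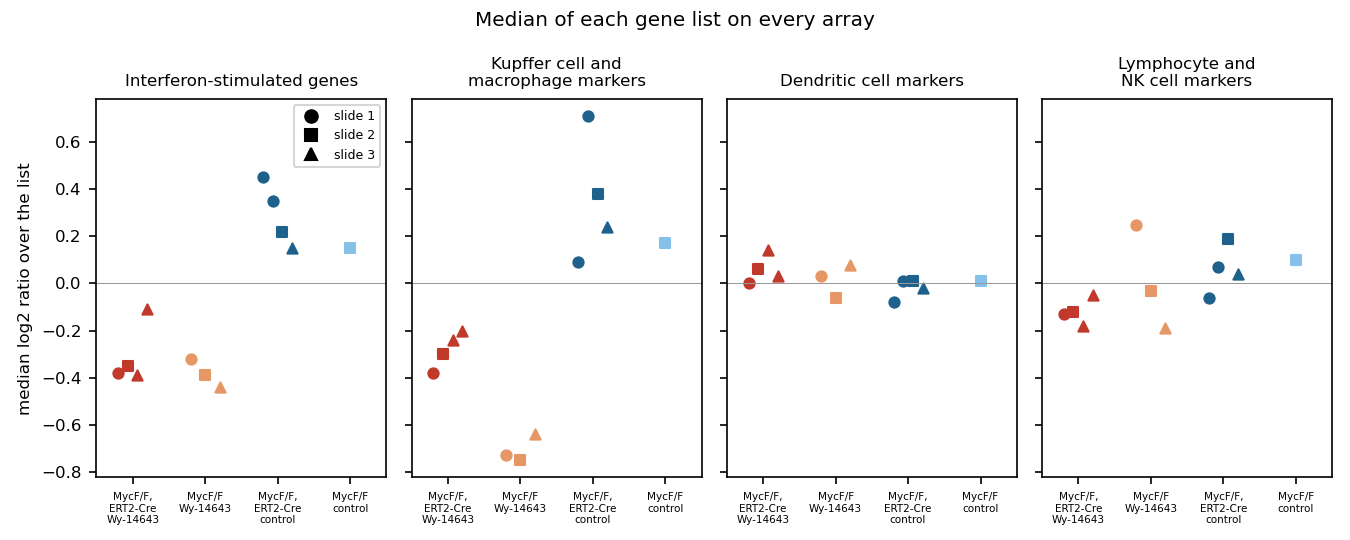
Median log2 ratio on each array over the interferon-stimulated genes, Kupffer cell and macrophage markers, dendritic cell markers and lymphocyte and NK cell markers; colours give the group and symbols the slide. The members' median is below 0 on all 7 Wy-14643 arrays and above it on all 5 control arrays, as is that of the Kupffer markers, whose MycF/F arrays on Wy-14643 (-0.75 to -0.64) lie below the MycF/F,ERT2-Cre ones (-0.38 to -0.20).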

How the data were processed

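RNA of 12 whole-liver samples in 4 groups was read on 2-colour Agilent arrays, 4 on each of 3 slides, with each sample labelled Cy5 and a pool of liver RNA labelled Cy3, per the labels. There was no dye swap. A dye effect on a gene that is the same on all arrays cancels between groups, while one that differs between arrays does not. The deposited intensity values are median spot and local background signals written by Feature Extraction 11.0.1.1 of Agilent, per the file headers; the log ratio deposited beside them is a log10 ratio after that software's background and dye corrections, used only as an alternative. The build in the design header (mm8) differs from that of the gene table (GRCm38.p6), so probes were named by accession and not placed; signal shared with close copies (Ifit3b, other Oas1 genes, Gbp10) was not tested.

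In R 4.3.3 with limma 3.58.1, signals were corrected with normexp (offset 50), log2 ratios were loess-normalized within arrays and outlier spots were left out. Probes well above background in Cy5 on at least 3 arrays were kept, and the brightest probe stood for a gene. A linear model with 1 mean per group (lmFit, eBayes) was fitted to all genes on all 12 arrays; tests were two-sided with Benjamini-Hochberg adjustment over all genes. Members and lists were chosen with earlier results of these data known. Named genes were members called in MycF/F,ERT2-Cre livers with an absolute log2 difference of at least 0.5 or called elsewhere, values outside that rule being given in short, and up to 5 genes a list by p; 1 gene that this rule names is not reported here. The scan times differ between slides and not within them, so both are 1 factor; within-slide values and slide as a block were tried, with other backgrounds, scalings, filters, weights and single arrays left out. On Wy-14643, same-numbered MycF/F,ERT2-Cre and MycF/F arrays share a slide and deviated together (r = 0.42, 0.14 and 0.14), so these numbers pair arrays by slide; between diets r ran from -0.07 to 0.35 and was not above 0.1 for every pair.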

Additional observations from a re-analysis of the deposited data

How the results depend on the processing

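The 20 members called lower on Wy-14643 in MycF/F,ERT2-Cre livers numbered 14 to 20 with 1 array left out (median -0.59 to -0.46), 21 with slide as a block (Ifi44 added) and 20 with a replicate block (Ifi44 in place of Oas1a; median -0.53). The count was 4 with median centring and 13 with Cy5 alone; the median was -0.66 without background correction, -0.93 with the deposited log ratio and -0.70 within slide 1. Over all genes the 1830 lower and 2295 higher calls became 287 and 607 with median centring and 668 and 627 with Cy5 alone. Oasl1, Gbp6 and Ifih1 were called in all settings tried with a test. In MycF/F livers the 6 became 0 with median centring (all genes 812 lower and 818 higher, then 101 and 118), 3 (median -0.82) with the deposited log ratio (507 and 551), 1 with Cy5 alone (102 and 156), 15 without slide 1 (1406 and 1438), 10 with the arrays of these groups alone, 6 with a replicate block and 4 to 8 with 1 array left out (median -0.59 to -0.54). Between genotypes on Wy-14643, 0 became 2 with array weights (all genes 21 lower and 5 higher, then 215 and 112) and 1 without slide 1 (all genes 76 and 34); with 1 array left out it was 0 (median 0.01 to 0.15), and the replicate block, which pairs arrays by slide there, gave 0 (median 0.12). On control diet leaving out 1 array gave 0 called (median 0.08 to 0.19), and the replicate block 0. The interaction median of -0.04 was -0.21 with Cy5 alone, 0.10 with slide as a block, 0.12 without slide 1, -0.10 with the replicate block and -0.09 to 0.01 with 1 array left out, with 0 called in each. The cause of these shifts was not tested. Without the MycF/F control array no comparison that uses it could be fitted. The number of arrays, with 1 MycF/F control, limits the precision.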
